A study of Mus musculus with 12 samples.

Results

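Toll-like receptor (TLR) transcripts were measured in dendritic cells (DCs) of the mouse small intestine. The genes were taken by symbol from a fixed list of 10 receptors, Tlr1, Tlr2, Tlr3, Tlr4, Tlr5, Tlr7, Tlr9, Tlr11, Tlr12 and Tlr13, out of 53801 gene rows, and all 10 passed the low-count filter that left 20580 tested genes. The mice were wild type (WT) or Cbfb F/F: CD11c-Cre (Cbfb-cKO), both of mixed background, and from each genotype CD103+CD11b- and CD103-CD11b+ DCs of the gut were sorted from the CD45+CD64-CD11c+MHC-II+ gate, with 3 libraries in each of the 4 groups. Cbfb encodes CBFβ, the shared partner of the Runx transcription factors. The Cre is driven by the CD11c promoter, so deletion is not limited to these subsets, since other CD11c-expressing cells and some T cells can also delete the gene. The replicates were sorted from different mice. The labels give neither the age of these mice nor whether the WT mice carried the Cre, and do not say whether both subsets of a replicate number came from the same mouse.

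TLRs are membrane receptors for conserved microbial molecules. TLR1, TLR2, TLR4, TLR5 and TLR6 act mainly at the cell surface on lipopeptides, lipopolysaccharide and flagellin, whereas TLR3, TLR7, TLR8, TLR9 and TLR13 bind nucleic acids in endosomes and TLR11 and TLR12 bind profilin of apicomplexan parasites. Most signal through the adaptor MyD88, TLR3 signals through TRIF, and TLR4 uses both. In mice, CD103+CD11b- DCs of the intestine are largely conventional type 1 DCs (cDC1s), which are known for TLR3, TLR11 and TLR12, while CD11b+ DCs are conventional type 2 DCs (cDC2s), and the gate can also hold cells related to macrophages.

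The libraries held 2161929 to 5863484 counts on genes. Levels are given as TMM-scaled CPM (counts scaled to a common library size), and comparisons between receptors as CPM per kilobase of merged exons (RPKM). The sorted populations differed in the markers of their labels. The summed level of 7 cDC1 markers was 4460 to 6651 CPM in WT CD103+CD11b- libraries and 2008 to 2471 CPM in WT CD103-CD11b+ libraries. Wdfy4 was the largest part of this sum, at means of 2575 and 1753 CPM. Itgam, which encodes CD11b, was at 3.66 to 4.79 CPM and 77.9 to 104 CPM in the same groups. Itgae, which encodes CD103, was at 616 to 899 CPM and 138 to 281 CPM in them. In the Cbfb-cKO CD103+CD11b- and CD103-CD11b+ libraries Itgae was at 657 to 776 CPM and 30.6 to 81.5 CPM. Other sums were 1579 to 2777 CPM for 4 pan-DC markers and 0.979 to 68.6 CPM for 4 T cell markers, over all libraries. Sums of 5 epithelial and of 4 monocyte and neutrophil markers were higher in CD103-CD11b+ libraries of both genotypes, without overlap. In CD103+CD11b- and CD103-CD11b+ libraries the epithelial sums were 51.9 to 67.3 and 72.0 to 114 CPM (WT), and 20.7 to 67.4 and 97.4 to 140.3 CPM (Cbfb-cKO). The monocyte and neutrophil sums were 56.7 to 110 and 134 to 175 CPM (WT), and 43.7 to 65.4 and 76.9 to 118 CPM (Cbfb-cKO). Single markers of each list ran both ways. Cbfb itself did not separate the genotypes, at 161 to 228 CPM in the WT and 170 to 290 CPM in the Cbfb-cKO libraries. The count covers the whole gene, exons outside the deleted part included, and checks nothing about the deletion. Xist was at 1312 to 1744 CPM in 6 libraries (replicates 1 and 2 of both WT groups and replicate 2 of both Cbfb-cKO groups) and at most at 3.33 CPM in the other 6, in which alone the summed Y-linked genes exceeded 0.342 CPM. The labels do not give the sex of the mice, and this split was unequal, with 2 of 3 libraries of each WT group and 1 of 3 of each Cbfb-cKO group. Tlr7, Tlr8 and Tlr13 lie on the X chromosome, and a term for the Xist level in the fit, chosen after seeing the data, changed the call of none of the 10 receptors in the 4 pairwise comparisons.

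The receptor repertoire of CD103+CD11b- DCs was dominated by 3 genes. Per length, Tlr12 (105 ± 8.91 RPKM, SD, n = 3), Tlr11 (94.4 ± 10.2) and Tlr3 (88.6 ± 8.46) led in WT CD103+CD11b- DCs, with overlapping libraries, and were followed by Tlr9 (53.9 ± 16.7), Tlr13 (25.2 ± 2.02), Tlr7 (15.6 ± 8.996), Tlr1 (7.62), Tlr5 (3.61), Tlr2 (2.61) and Tlr4 (0.770). Of these neighbours, Tlr7 and Tlr1, and Tlr5 and Tlr2, also overlapped. In WT CD103-CD11b+ DCs the range was narrow, from Tlr9 (28.3 RPKM) through Tlr13 (15.5), Tlr12 (12.4), Tlr2 (12.3), Tlr11 (11.7), Tlr1 (10.8), Tlr3 (10.5), Tlr5 (6.41) and Tlr4 (4.72) to Tlr7 (2.13), and every pair of neighbours in this order overlapped. In Cbfb-cKO CD103+CD11b- DCs the order was Tlr11 (144), Tlr12 (120), Tlr3 (111), Tlr9 (60.9), Tlr13 (42.02), Tlr1 (13.04), Tlr7 (3.55), Tlr2 (1.26), Tlr4 (0.287) and Tlr5 (0.128), where Tlr12 and Tlr3, and Tlr4 and Tlr5, overlapped. Cbfb-cKO CD103-CD11b+ DCs had Tlr9 (39.2), Tlr11 (34.7), Tlr13 (29.4) and Tlr1 (23.7) at the top, Tlr12 (15.2), Tlr3 (13.002) and Tlr2 (10.2) next, and Tlr7 (4.67), Tlr5 (2.32) and Tlr4 (2.07) last. The exact order changed in all 4 groups when the longest transcript was used as the length in place of merged exons.

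Shares of the summed RPKM of the 10 genes restate the levels above in another form and are no separate test of the subsets. Tlr3, Tlr11 and Tlr12 together made 70.2%, 71.1% and 77.1% of the sum in the WT CD103+CD11b- libraries and 27.9%, 30.7% and 32.7% in the WT CD103-CD11b+ libraries. In the Cbfb-cKO libraries the same share was 72.3%, 73.5% and 80.6% in CD103+CD11b- DCs against 34.2%, 34.4% and 39.6% in CD103-CD11b+ DCs. The subsets did not overlap in either genotype. The genotypes overlapped within CD103+CD11b- DCs, but within CD103-CD11b+ DCs every Cbfb-cKO share was above every WT share. The surface receptor genes Tlr1, Tlr2, Tlr4 and Tlr5 averaged 3.69% and 30.3% in the 2 WT subsets and 3.01% and 22.0% in the Cbfb-cKO subsets. The sum itself was 397 RPKM and 115 RPKM in the WT subsets and 496 RPKM and 175 RPKM in the Cbfb-cKO subsets.

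**Figure D1:**
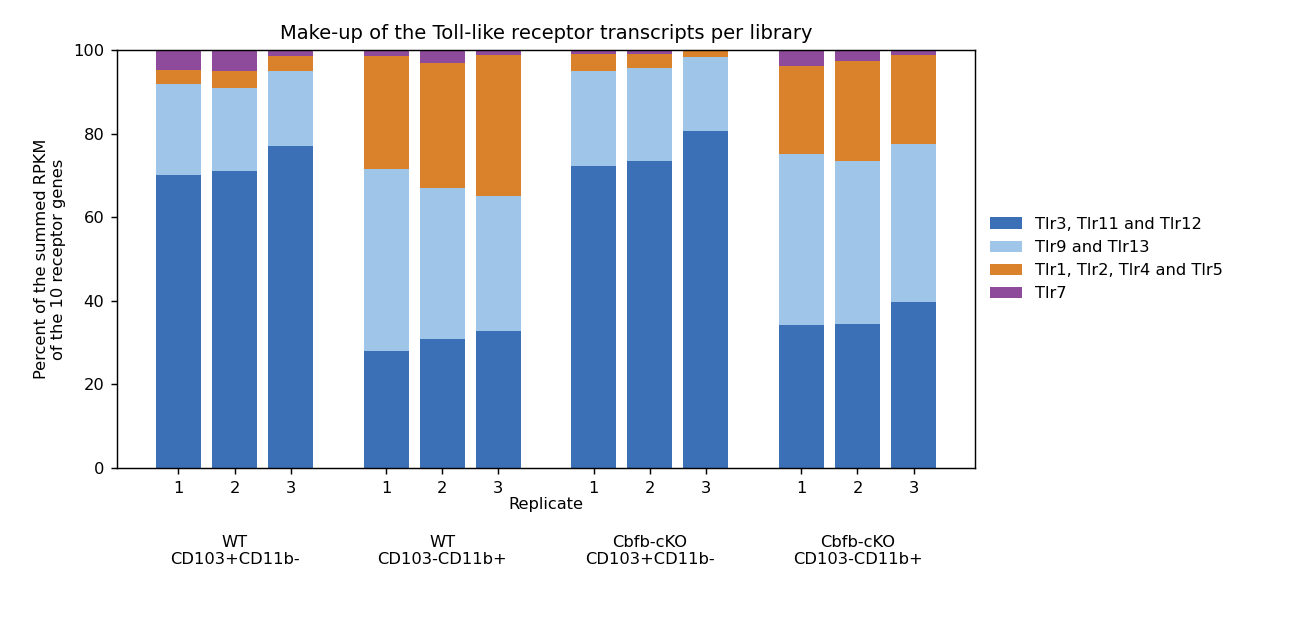
Percent of the summed RPKM of the 10 receptor genes taken by each group of receptors, 1 stacked bar per library, by group and replicate. Tlr3, Tlr11 and Tlr12 take at least 70.2% in every CD103+CD11b- library and at most 39.6% in every CD103-CD11b+ library.

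**Figure D2:**
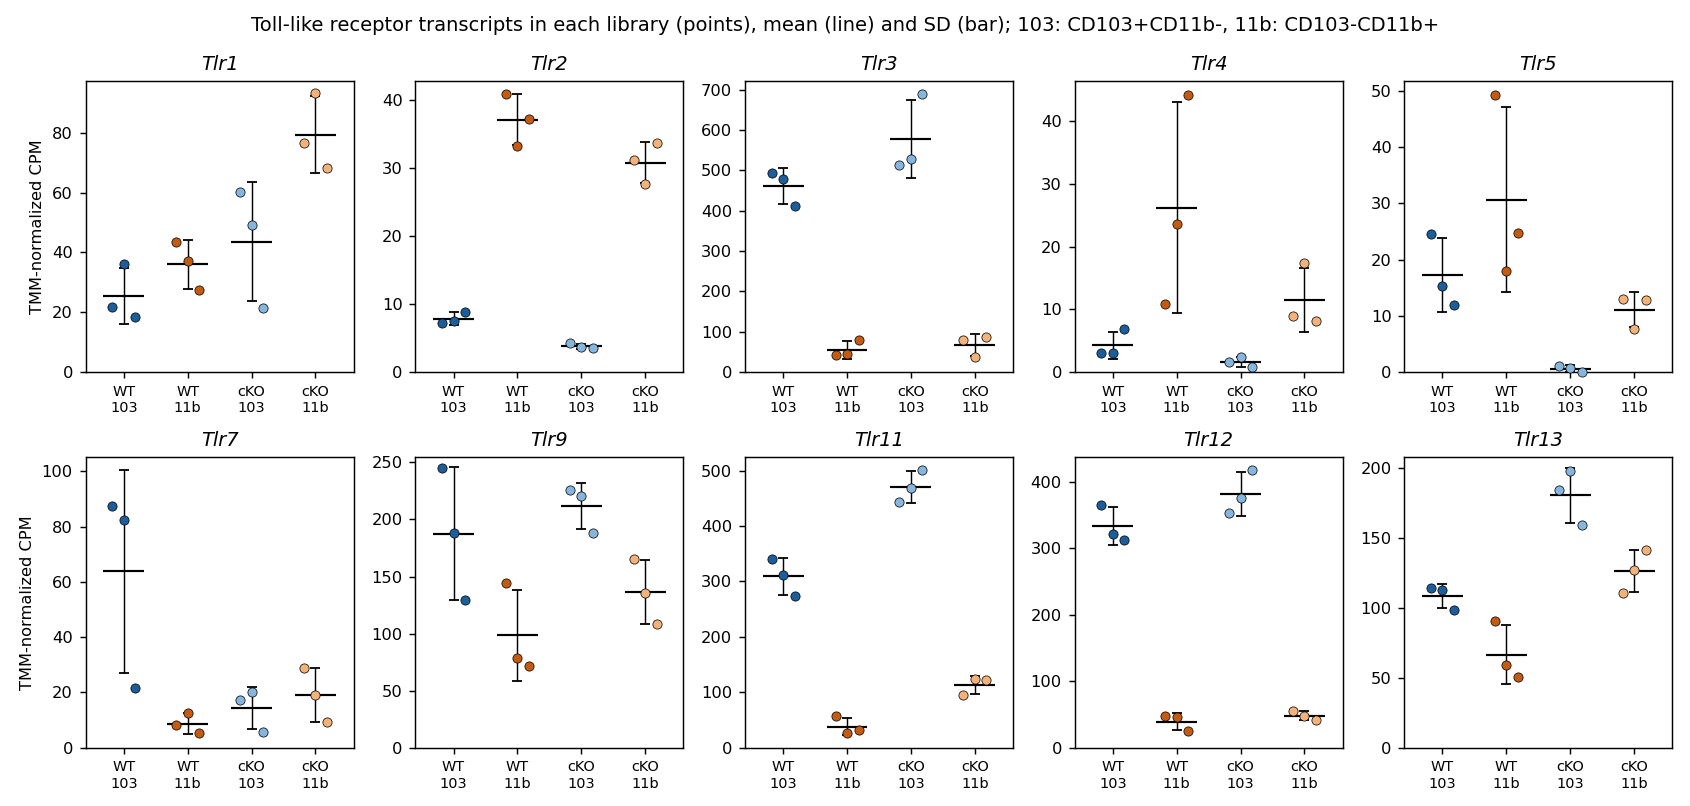
TMM-normalized CPM of each of the 10 receptor genes (1 panel per gene, linear axis from 0) in each library (points), with the group mean (line) and SD (bar), for WT and Cbfb-cKO CD103+CD11b- and CD103-CD11b+ DCs. Tlr3, Tlr11 and Tlr12 are high in both CD103+CD11b- groups, Tlr2 is high in both CD103-CD11b+ groups, and Tlr5 is near 0 in Cbfb-cKO CD103+CD11b- DCs.

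The subset comparison asked which receptors differ between CD103-CD11b+ and CD103+CD11b- DCs of the same genotype. In edgeR's quasi-likelihood test across all tested genes, a gene was called at a Benjamini-Hochberg adjusted p (FDR) under 0.05 with a fold change over 1.3. In WT mice, 2 of the 10 receptor genes were higher in CD103-CD11b+ DCs (Tlr2 and Tlr4), beside 11.8% of all tested genes, and 6 were lower (Tlr3, Tlr7, Tlr9, Tlr11, Tlr12 and Tlr13), beside 7.00%. In Cbfb-cKO mice, 3 were higher (Tlr2, Tlr4 and Tlr5), beside 9.26% of all genes, and 3 were lower (Tlr3, Tlr11 and Tlr12), beside 6.81%. Over the 10 genes the log2 fold change had a median of -0.81 in WT and -0.06 in Cbfb-cKO mice, against 0.07 and 0.11 over all tested genes. In whole populations, fewer cells of a type and less RNA per cell cannot be told apart.

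**Figure D3:**
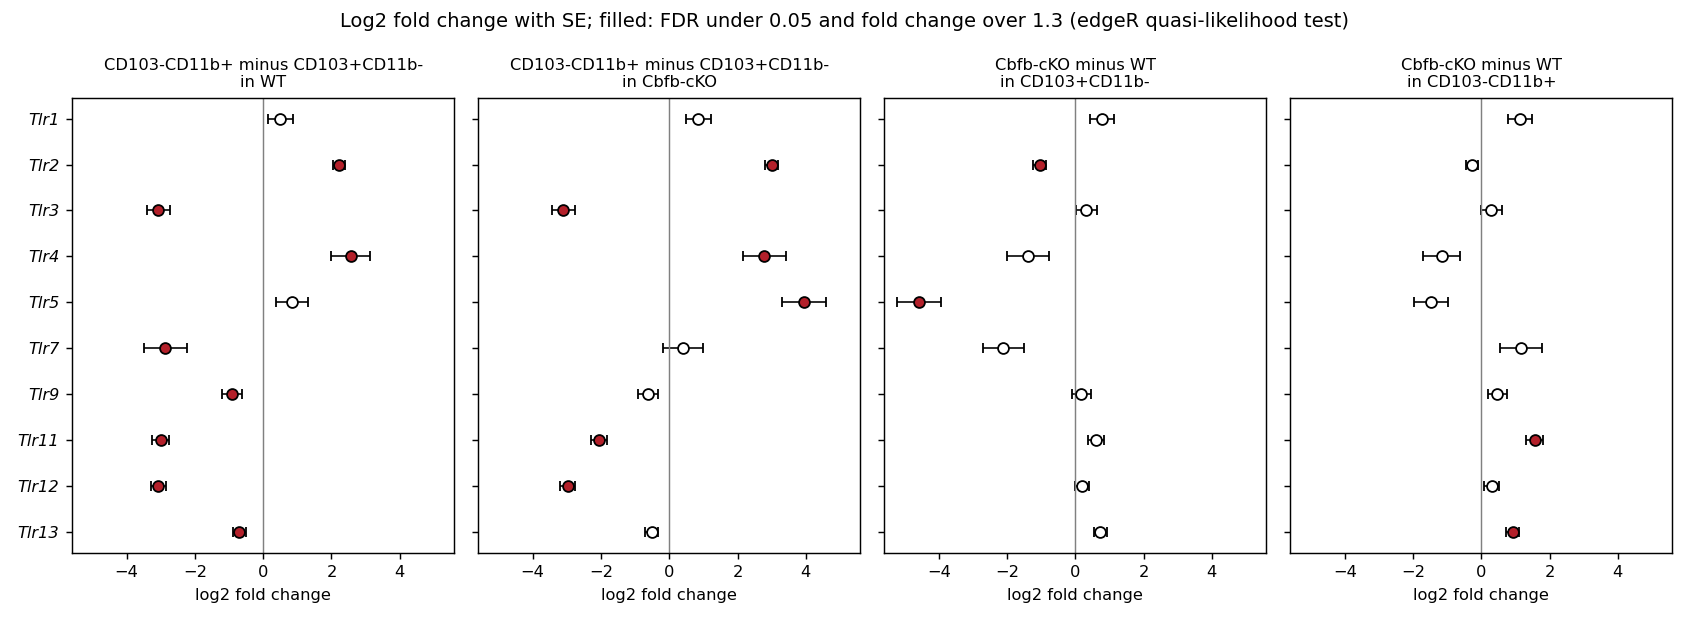
Log2 fold change with SE of each receptor gene in the 2 subset comparisons (CD103-CD11b+ minus CD103+CD11b-) and the 2 genotype comparisons (Cbfb-cKO minus WT), n = 3 libraries a group. Filled points passed an FDR of 0.05 with a fold change over 1.3. Most filled points are in the subset comparisons, and Tlr5 in CD103+CD11b- DCs has the lowest genotype value, at -4.57.

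Tlr12 and Tlr2 had the smallest p in each direction of the WT subset comparison, so the DNA just before these genes is shown, read from the RefSeq promoter table (GRCm38.p6) on the coding strand and cut where the annotated gene begins. Tlr12 lies on chromosome 4, with the stretch at chr4:128618620-128618869 on the minus strand, and Tlr2 on chromosome 3, with the stretch at chr3:83841768-83841858 on the minus strand. Capitals mark ACCACA, the reverse complement of the Runx core TGTGGT, which is the sequence bound by the complex of Runx and CBFβ.
Tlr12: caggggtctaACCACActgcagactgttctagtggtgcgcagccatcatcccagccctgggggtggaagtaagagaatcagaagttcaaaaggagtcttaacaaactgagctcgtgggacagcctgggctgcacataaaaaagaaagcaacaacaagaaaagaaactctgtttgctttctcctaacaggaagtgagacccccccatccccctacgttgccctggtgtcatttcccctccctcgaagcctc
Tlr2: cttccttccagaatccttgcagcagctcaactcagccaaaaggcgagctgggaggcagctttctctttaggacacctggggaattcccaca
The table held 9 windows of 300 bases (250 before to 50 after the start) for 8 of the 10 genes, and none for Tlr4 and Tlr7. TGTGGT, searched on both strands, was in 1 of the 9 windows, that of Tlr12, with its first base 240 bases before the start, against 16.8% of all 32851 windows. TGCGGT, the other Runx core, was in none of the 9, against 6.45%. GAGGAA, the core of ETS factors such as PU.1, was in 4 of the 9 (in windows of Tlr1, Tlr9, Tlr11 and Tlr13), against 28.3%. None of the motifs contains another, and these matches describe letters in a window, not bound sites.

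Tlr3, Tlr11 and Tlr12 were 4 to 9 times lower in CD103-CD11b+ than in CD103+CD11b- DCs of both genotypes. Tlr12 (chr4:128615443-128618619), a profilin receptor that pairs with TLR11, was at 365, 321 and 312 CPM in WT CD103+CD11b- libraries and at 47.4, 45.6 and 25.0 CPM in WT CD103-CD11b+ libraries. Its level in Cbfb-cKO mice was 352, 375 and 418 CPM and 54.8, 48.3 and 41.8 CPM. Thus every CD103+CD11b- library lay far above every CD103-CD11b+ library, and the genotypes overlapped within each subset. The log2 fold change was -3.08 (SE 0.22, edgeR FDR 1.85e-05) in WT and -2.97 (SE 0.22, edgeR FDR 1.02e-05) in Cbfb-cKO mice. Between genotypes, Tlr12 was not called in CD103+CD11b- DCs (log2 0.20, SE 0.20, edgeR FDR 0.856) or in CD103-CD11b+ DCs (log2 0.30, SE 0.21, edgeR FDR 0.482).

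Tlr3 (chr8:45395665-45411080), the receptor for double-stranded RNA, was at 493, 479 and 411 CPM in WT CD103+CD11b- and at 41.1, 44.0 and 79.4 CPM in WT CD103-CD11b+ libraries. The Cbfb-cKO libraries held 513, 529 and 689 CPM in CD103+CD11b- and 79.0, 36.9 and 87.2 CPM in CD103-CD11b+ DCs. The subsets did not overlap in either genotype, and the log2 fold change was -3.07 (SE 0.33, edgeR FDR 0.000292) in WT and -3.10 (SE 0.33, edgeR FDR 0.000125) in Cbfb-cKO mice. The Cbfb-cKO CD103+CD11b- libraries all lay above the WT ones, but the genotype difference was not called (log2 0.32, SE 0.30, edgeR FDR 0.841), nor was it in CD103-CD11b+ DCs (log2 0.30, SE 0.32, edgeR FDR 0.664). The exons of Tlr3 share 381 bases with the antisense gene Gm45542, which the counting without strand leaves unassigned, and Gm45542 had 2 counts over all libraries.

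Tlr11 (chr14:50357914-50363663), the other profilin receptor, differed between subsets and also between genotypes. It was at 341, 312 and 274 CPM in WT CD103+CD11b- and at 56.4, 26.7 and 31.4 CPM in WT CD103-CD11b+ libraries, a log2 fold change of -3.00 (SE 0.25, edgeR FDR 4.87e-05). The Cbfb-cKO levels were 443, 468 and 501 CPM and 94.5, 125 and 121 CPM, a log2 fold change of -2.05 (SE 0.24, edgeR FDR 0.000200). All 3 Cbfb-cKO libraries lay above all 3 WT libraries in each subset. In CD103-CD11b+ DCs this was a called rise of 2.94-fold (log2 1.56, SE 0.24, edgeR FDR 0.0110), although a fit of those 6 libraries alone did not call it (edgeR FDR 0.140). It was not called in CD103+CD11b- DCs (log2 0.61, SE 0.23, edgeR FDR 0.330). The difference between these genotype effects, 0.95 on the log2 scale (SE 0.33), did not pass the test (edgeR FDR 0.283), and passed it without WT CD103-CD11b+ replicate 1 (1.36, edgeR FDR 0.0247).

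Tlr2 and Tlr4 were higher in CD103-CD11b+ DCs of both genotypes. Tlr2 (chr3:83836272-83841767), which pairs with TLR1 or TLR6 to bind bacterial lipopeptides, was at 7.18, 7.55 and 8.89 CPM in WT CD103+CD11b- and at 40.9, 33.3 and 37.2 CPM in WT CD103-CD11b+ libraries. In Cbfb-cKO mice it was at 4.22, 3.66 and 3.52 CPM and at 31.2, 27.6 and 33.7 CPM. These groups showed little spread and the subsets did not overlap, with a 4.68-fold difference in WT (log2 2.23, SE 0.18, edgeR FDR 3.96e-05) and an 7.996-fold difference in Cbfb-cKO mice (log2 2.999, SE 0.19, edgeR FDR 5.47e-06). Within CD103+CD11b- DCs every Cbfb-cKO library was below every WT library, a called fall of 2.06-fold (log2 -1.04, SE 0.19, edgeR FDR 0.0304). This call was lost in 8 of the 12 fits that left out 1 library (FDR 0.0529 to 0.116, log2 -1.13 to -0.94 over all 12), and kept without WT CD103-CD11b+ replicate 1 or 2 or Cbfb-cKO CD103-CD11b+ replicate 2 or 3. It was lost also with no low-count filter (FDR 0.0600) and in a fit of those 6 libraries alone (FDR 0.142). In CD103-CD11b+ DCs the genotypes overlapped (log2 -0.27, SE 0.17, edgeR FDR 0.415).

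Tlr4 (chr4:66827584-66930284), the receptor for lipopolysaccharide, was low throughout and uneven between libraries. It was at 3.08, 2.97 and 6.79 CPM in WT CD103+CD11b- and at 10.8, 23.7 and 44.2 CPM in WT CD103-CD11b+ libraries. The Cbfb-cKO groups had 1.55, 2.44 and 0.782 CPM and 8.98, 17.4 and 8.16 CPM. The subsets did not overlap, with log2 fold changes of 2.57 (SE 0.57, edgeR FDR 0.0127) in WT and 2.79 (SE 0.62, edgeR FDR 0.0111) in Cbfb-cKO mice. The WT call was lost without WT CD103+CD11b- replicate 1 or 2 (FDR 0.0554 and 0.0599), and the WT value was 1.92 without WT CD103-CD11b+ replicate 3. Between genotypes the test called neither subset, at log2 -1.39 (SE 0.63, edgeR FDR 0.468) in CD103+CD11b- and -1.17 (SE 0.54, edgeR FDR 0.294) in CD103-CD11b+ DCs, the latter at -0.54 without WT CD103-CD11b+ replicate 3. The summed level of 8 macrophage markers moved with the subsets, at 14.9 to 33.0 CPM in WT CD103+CD11b-, 156 to 408 in WT CD103-CD11b+, 13.5 to 65.4 in Cbfb-cKO CD103+CD11b- and 305 to 511 CPM in Cbfb-cKO CD103-CD11b+ libraries. Of these markers 7 of 8 were called higher in CD103-CD11b+ DCs of WT and 5 of 8 in those of Cbfb-cKO mice. Fcgr1 and Mertk were at 0 in a WT CD103+CD11b- library, and Fcgr1, C1qa, C1qb, Mrc1 and Cd163 in a Cbfb-cKO CD103+CD11b- library. The sort gated against CD64, the product of Fcgr1, a gate that removes most macrophages. The sums of the epithelial and of the monocyte and neutrophil markers also moved with the subsets. The part of macrophages and of these other cells in the levels of Tlr2 and Tlr4 was not tested.

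Tlr1 (chr5:64924679-64933563), a partner of TLR2, was at 21.9, 36.2 and 18.4 CPM in WT CD103+CD11b- and at 43.7, 37.3 and 27.3 CPM in WT CD103-CD11b+ libraries, and at 60.4, 49.1 and 21.5 CPM and 76.6, 93.5 and 68.3 CPM in the Cbfb-cKO groups. The WT subsets overlapped (log2 0.51, SE 0.36, edgeR FDR 0.354). The Cbfb-cKO subsets did not overlap, and were not called without a block for the replicate number (log2 0.86, SE 0.35, edgeR FDR 0.122) but were with the replicate block (log2 0.93, edgeR FDR 0.0254). In CD103-CD11b+ DCs every Cbfb-cKO library was above every WT library, without a call (log2 1.14, SE 0.36, edgeR FDR 0.134), whereas DESeq2 called it (adjusted p 0.0359). In CD103+CD11b- DCs the genotypes overlapped (log2 0.79, SE 0.36, edgeR FDR 0.475). Tlr6, the other partner of TLR2 and not among the 10 genes, averaged 17.7, 13.7, 25.3 and 24.5 CPM in the same order of groups and was called in no comparison.

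Tlr5 (chr1:182954788-182976044), the flagellin receptor, had the largest genotype difference of the 10 genes. In WT mice it was at 24.6, 15.3 and 11.96 CPM in CD103+CD11b- and at 49.3, 18.0 and 24.7 CPM in CD103-CD11b+ libraries, which overlapped (log2 0.84, SE 0.48, edgeR FDR 0.241). In Cbfb-cKO mice it was at 1.11, 0.732 and 0 CPM in CD103+CD11b- libraries, which is 5, 3 and 0 counts, and at 13.02, 7.61 and 12.7 CPM in CD103-CD11b+ libraries. Tlr5 was thus close to 0 in 1 group and well above it in the other 3. Within CD103+CD11b- DCs it was lower in Cbfb-cKO than in WT mice (log2 -4.57, SE 0.64, edgeR FDR 0.00938). From the summed counts of the groups, 213 in WT and 8 in Cbfb-cKO, the WT level was 22.0 times that of Cbfb-cKO (95% exact interval 10.99 to 51.7, counting error only). The call was lost without Cbfb-cKO CD103+CD11b- replicate 2 (FDR 0.0539), and the value was -5.20 without replicate 1 of that group.

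Between the Cbfb-cKO subsets Tlr5 was higher in CD103-CD11b+ DCs (log2 3.94, SE 0.64, edgeR FDR 0.00180), at 4.57 without Cbfb-cKO CD103+CD11b- replicate 1. In CD103-CD11b+ DCs every Cbfb-cKO library was below every WT library, without a call (log2 -1.48, SE 0.49, edgeR FDR 0.155, DESeq2 adjusted p 0.0425). The genotype effects of the subsets differed by 3.10 on the log2 scale (SE 0.80), which did not pass the test (edgeR FDR 0.151), whereas DESeq2 and edgeR's likelihood ratio test called it (adjusted p 0.0144 and 0.0126), as did the replicate block (edgeR FDR 0.0396) but not the block within genotype. Tlr8, an endosomal RNA receptor that was not among the 10 genes, was also lowest in Cbfb-cKO CD103+CD11b- DCs, at 9.57, 3.89 and 7.44 CPM in WT CD103+CD11b-, 28.0, 13.3 and 16.9 in WT CD103-CD11b+, 0.666, 0.976 and 0 in Cbfb-cKO CD103+CD11b- and 11.2, 14.0 and 20.9 CPM in Cbfb-cKO CD103-CD11b+ libraries. It was lower in Cbfb-cKO than in WT CD103+CD11b- DCs (log2 -3.44, SE 0.63, edgeR FDR 0.0321), a call lost in 7 of the 12 fits without 1 library (FDR 0.0504 to 0.144).

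Markers of cDC2s moved with Tlr2, Tlr5 and Tlr8 in CD103+CD11b- DCs. The sum of 6 cDC2 markers was 369 to 622 CPM in WT and 83.3 to 128 CPM in Cbfb-cKO CD103+CD11b- libraries, and 932 to 1002 CPM and 1044 to 1612 CPM in WT and Cbfb-cKO CD103-CD11b+ libraries. Of the 6, 4 fell in Cbfb-cKO CD103+CD11b- DCs, which were Sirpa (log2 -2.74), Irf4 (-1.78), Cd209a (-2.80) and Clec4a4 (-4.27). Sirpa, the cDC2 surface marker SIRPα, was at 283, 214 and 137 CPM in WT and at 47.3, 40.3 and 5.08 CPM in Cbfb-cKO CD103+CD11b- libraries. Clec4a4 was at 0 in 1 Cbfb-cKO CD103+CD11b- library. The other two were not called, with Clec10a at a log2 fold change of -1.61 (edgeR FDR 0.266) and Itgam, whose product CD11b the sort gated against, at 0.92 (edgeR FDR 0.239), from 3.66 to 4.79 CPM in WT to 5.99 to 10.98 CPM in Cbfb-cKO libraries. The part of these cells in the levels of the receptors was not tested.

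Tlr7 (chrX:167304929-167330558), the receptor for single-stranded RNA, had its highest mean in WT CD103+CD11b- DCs, at 87.5, 82.4 and 21.5 CPM, against 8.22, 12.7 and 5.24 CPM in WT CD103-CD11b+ libraries. The subsets did not overlap, a fall of 7.32-fold (log2 -2.87, SE 0.63, edgeR FDR 0.0122). In Cbfb-cKO mice it was at 17.3, 20.3 and 5.87 CPM in CD103+CD11b- and at 29.0, 19.03 and 9.18 CPM in CD103-CD11b+ libraries, which overlapped (log2 0.40, SE 0.60, edgeR FDR 0.689). In CD103+CD11b- DCs every Cbfb-cKO library was below every WT library, but the difference was not called (log2 -2.11, SE 0.60, edgeR FDR 0.159). It was called by DESeq2 (adjusted p 0.0217), by edgeR's likelihood ratio test (0.0329), with the replicate block (edgeR FDR 0.00626) and without WT CD103+CD11b- replicate 3 (log2 -2.53, edgeR FDR 0.0456). In CD103-CD11b+ DCs the genotypes overlapped (log2 1.16, SE 0.62, edgeR FDR 0.353). The genotype effects of the subsets differed by 3.27 on the log2 scale (SE 0.86, edgeR FDR 0.158), and this too was called by DESeq2 (adjusted p 0.0132), by the likelihood ratio test (0.0187), with the replicate block (edgeR FDR 0.00775, or 0.0150 with the block within genotype) and without WT CD103+CD11b- replicate 3 (3.72, edgeR FDR 0.0499).

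Tlr7 was lowest in replicate 3 of all 4 groups, and each of these libraries was among the 6 with Xist at most at 3.33 CPM. The remaining libraries of those 6, replicate 1 of both Cbfb-cKO groups, had 17.3 and 29.0 CPM of Tlr7, the latter the highest of its group. Siglech, a marker of plasmacytoid DCs, a cell type known for TLR7 and TLR9, was also lowest in replicate 3 of 3 of the groups, at 464, 358 and 160 CPM in WT CD103+CD11b-, 111, 150 and 18.0 in Cbfb-cKO CD103+CD11b- and 59.0, 25.7 and 6.63 CPM in Cbfb-cKO CD103-CD11b+ libraries, with 47.2, 14.3 and 28.8 CPM in WT CD103-CD11b+ libraries. The sum of 6 plasmacytoid DC markers was 631 to 1573 CPM in WT CD103+CD11b-, 619 to 923 in WT CD103-CD11b+, 221 to 563 in Cbfb-cKO CD103+CD11b- and 373 to 645 CPM in Cbfb-cKO CD103-CD11b+ libraries. Tcf4 was the largest part of this sum, at means of 567, 601, 206 and 425 CPM in the same order of groups. Between the WT subsets 3 of the 6 were called lower in CD103-CD11b+ DCs (Ly6d, Pacsin1 and Siglech). Only Tcf4 had a positive value there, without a call. Between the genotypes in CD103+CD11b- DCs none of the 6 was called, all 6 had negative values, and their median log2 fold change was -1.63. Klk1 was at 0 in 1 Cbfb-cKO CD103-CD11b+ library. The part of plasmacytoid DCs in the levels of Tlr7 and Tlr9 was not tested.

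**Figure D4:**
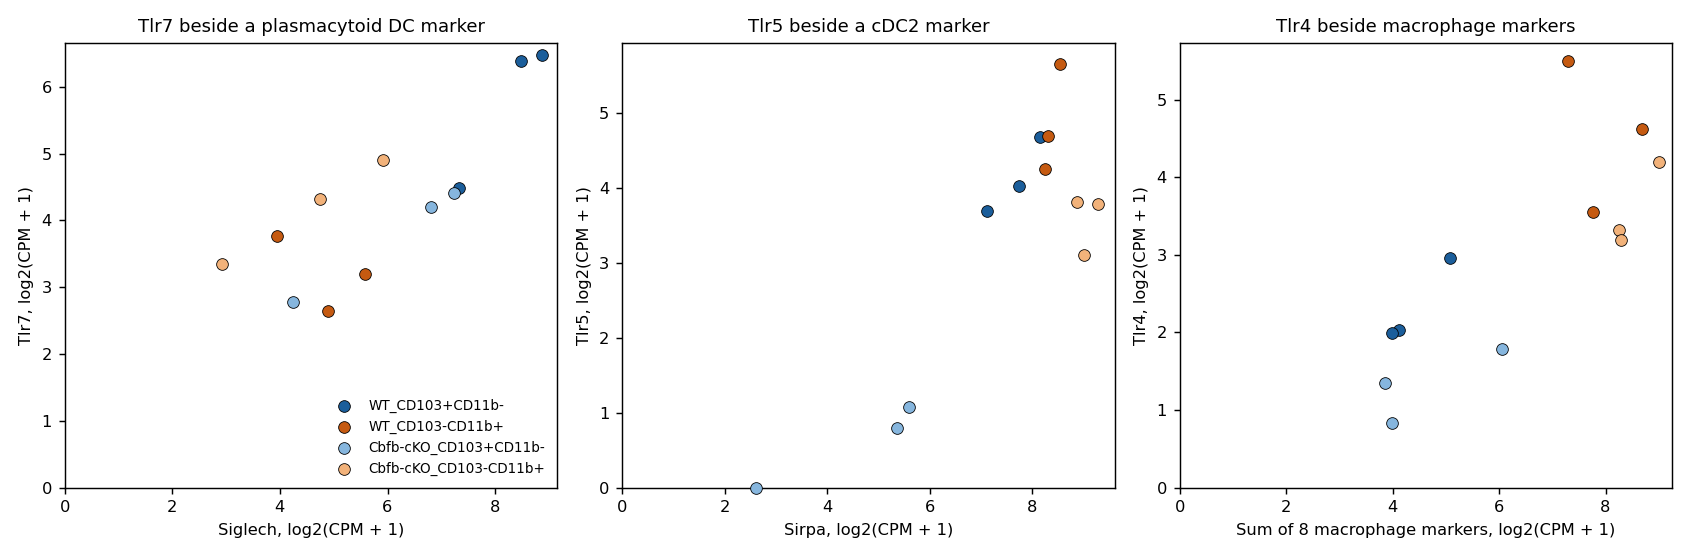
Each point is 1 library, coloured by group, on log2(CPM + 1) axes, with Tlr7 against Siglech (plasmacytoid DC marker), Tlr5 against Sirpa (cDC2 marker) and Tlr4 against the sum of 8 macrophage markers. The Cbfb-cKO CD103+CD11b- libraries sit at the low end of Tlr5 and of Sirpa, and the CD103-CD11b+ libraries at the high end of Tlr4 and of the macrophage markers.

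Tlr9 and Tlr13 were expressed in both subsets, with smaller differences. Tlr9 (chr9:106222598-106226883), the receptor for CpG DNA, was at 246, 188 and 130 CPM in WT CD103+CD11b- and at 145, 79.0 and 71.6 CPM in WT CD103-CD11b+ libraries. Cbfb-cKO libraries held 226, 221 and 189 CPM and 165, 136 and 109 CPM. Like Tlr7, Tlr9 was lowest in replicate 3 of all 4 groups. Between the WT subsets Tlr9 ran lower in CD103-CD11b+ DCs, as did 5 of the 6 plasmacytoid DC markers, while Tcf4 ran the other way. Tlr9 overlapped between these subsets, and its difference was called close to the threshold (log2 -0.92, SE 0.29, edgeR FDR 0.0464). The call was kept only without WT CD103+CD11b- replicate 3, WT CD103-CD11b+ replicate 1 or Cbfb-cKO CD103-CD11b+ replicate 1 or 3 and lost in the other 8 fits without 1 library (FDR 0.0567 to 0.170), and was also lost with a filter of 5 counts in every library (FDR 0.0525) and in a fit of those 6 libraries alone (FDR 0.109). The Cbfb-cKO subsets did not overlap but were not called (log2 -0.63, SE 0.29, edgeR FDR 0.158), and were called with the replicate block (log2 -0.66, edgeR FDR 0.0165) and in a fit of those 6 libraries alone (FDR 0.0337). Between genotypes Tlr9 differed by 0.18 on the log2 scale in CD103+CD11b- DCs (SE 0.29, edgeR FDR 0.934) and by 0.47 in CD103-CD11b+ DCs (SE 0.29, edgeR FDR 0.419).

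Tlr13 (chrX:106143204-106160493), which binds bacterial ribosomal RNA, was at 114, 113 and 98.6 CPM in WT CD103+CD11b- and at 90.4, 59.0 and 50.3 CPM in WT CD103-CD11b+ libraries. In Cbfb-cKO mice it was at 185, 198 and 160 CPM and at 111, 128 and 141 CPM. The subsets did not overlap in either genotype, and the lower level in CD103-CD11b+ DCs was called in WT (log2 -0.70, SE 0.20, edgeR FDR 0.0316) and not in Cbfb-cKO mice (log2 -0.52, SE 0.19, edgeR FDR 0.0922). The WT call was lost without WT CD103+CD11b- replicate 1 or 2 or WT CD103-CD11b+ replicate 2 or 3 (FDR 0.0747 to 0.0949) and in a fit of the 6 WT libraries alone (FDR 0.0855), and the Cbfb-cKO difference was called without WT CD103-CD11b+ replicate 1 (FDR 0.0162) or 3 (FDR 0.0483) and in a fit of the 6 Cbfb-cKO libraries alone (FDR 0.0437). All Cbfb-cKO libraries were above all WT libraries of the same subset. This was a called rise of 1.89-fold in CD103-CD11b+ DCs (log2 0.92, SE 0.20, edgeR FDR 0.0452), kept only without WT CD103-CD11b+ replicate 1 among the 12 fits without 1 library (FDR 0.0519 to 0.131 in the other 11), and lost in a fit of those 6 libraries alone (FDR 0.224). It was not called in CD103+CD11b- DCs (log2 0.74, SE 0.19, edgeR FDR 0.124), but was by DESeq2 (adjusted p 0.00937) and without WT CD103-CD11b+ replicate 1 (edgeR FDR 0.0316).

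The genotype comparison asked which receptors differ between Cbfb-cKO and WT DCs of the same subset. In CD103+CD11b- DCs no receptor gene was called higher in Cbfb-cKO mice, beside 0.224% of all tested genes, while 2 had an unadjusted p under 0.05 and DESeq2 called 1, and 2 were lower (Tlr2 and Tlr5), beside 0.797%. In CD103-CD11b+ DCs 2 were higher (Tlr11 and Tlr13), beside 1.11% of all genes, and none was lower, beside 0.500%, with 1 at an unadjusted p under 0.05 and 1 called by DESeq2. The 2 comparisons share no library, but both come from the 1 model of all 4 groups and share its estimate of spread. The labels do not say whether they share mice. The libraries of the genotypes did not overlap for 7 of the 10 genes in CD103+CD11b- DCs (Tlr2, Tlr3, Tlr4, Tlr5, Tlr7, Tlr11 and Tlr13) and for 4 in CD103-CD11b+ DCs (Tlr1, Tlr5, Tlr11 and Tlr13), beside 18.1% and 20.1% of all tested genes. Over the 10 genes the log2 fold change had a median of 0.19 and 0.39, against -0.02 and -0.06 over all tested genes. Markers of B cells moved with the Cbfb-cKO CD103-CD11b+ group: the sum of Cd79a, Cd79b, Pax5, Ms4a1 and Cr2 was 13.7 to 26.5 CPM in WT CD103+CD11b-, 14.5 to 65.97 in WT CD103-CD11b+, 20.7 to 31.3 in Cbfb-cKO CD103+CD11b- and 69.9 to 286 CPM in Cbfb-cKO CD103-CD11b+ libraries. Between genotypes in CD103-CD11b+ DCs all 5 had positive values and 1 was called higher, between the Cbfb-cKO subsets 4 of the 5 were called higher in CD103-CD11b+ DCs, and Pax5 was at 0 in a library of each CD103-CD11b+ group. Their part in the levels of Tlr1, Tlr11 and Tlr13 was not tested. The genotype effect was not called different between the subsets for any of the 10 genes by edgeR's quasi-likelihood test, beside 0.651% of all genes, with 4 at an unadjusted p under 0.05 and 2 called by DESeq2.

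Genes that work with the receptors were called mostly in the subset comparisons. The 45 genes fell into 6 lists of adaptors, kinases and ubiquitin ligases, co-receptors, folding and trafficking factors, inhibitors and interferon regulatory factors. In CD103-CD11b+ against CD103+CD11b- DCs 7 were called higher and 7 lower in WT mice (31.1% of the 45, beside 18.8% of all tested genes), and 9 higher and 4 lower in Cbfb-cKO mice (28.9%, beside 16.1%). Between genotypes, none was called in CD103+CD11b- DCs, where 4 had an unadjusted p under 0.05 and DESeq2 called 2. The share called of all tested genes was 1.02% in that comparison and 1.61% in CD103-CD11b+ DCs, where 14 of the 45 had an unadjusted p under 0.05 and only Cd180 was called, and DESeq2 called 1.

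Among the adaptors, Sarm1, a regulator of TRIF signalling, averaged 8.65 and 1.90 CPM in the WT and 14.0 and 1.07 CPM in the Cbfb-cKO subsets, and was lower in CD103-CD11b+ DCs of both (log2 -2.17, edgeR FDR 0.00479, and -3.87, FDR 0.000171). Ticam2, the TRAM adaptor of TLR4, was at a mean of 6.40 and 13.4 CPM in the WT and of 0.673 and 9.63 CPM in the Cbfb-cKO subsets, a called difference in the latter (log2 3.599, edgeR FDR 0.00646). It had 8, 1 and 0 counts in the Cbfb-cKO CD103+CD11b- libraries, so counting error limits this value. Myd88 had a log2 fold change of 0.37 in WT mice (edgeR FDR 0.0213) that stayed under the fold limit. Of the kinases and ligases, Irak2 (log2 1.42, edgeR FDR 0.0143), Traf3 (0.86, FDR 0.00376) and Ikbke (2.06, FDR 0.00481) were higher in Cbfb-cKO CD103-CD11b+ DCs, and Tab2, an adaptor of the TAK1 kinase, was lower in the WT ones (log2 -0.50, FDR 0.0166).

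Of the co-receptors, Cd36, which presents lipids to TLR2, was lower in CD103-CD11b+ DCs of WT (log2 -1.19, edgeR FDR 0.0158) and Cbfb-cKO mice (log2 -1.72, FDR 0.00185). Lbp, which transfers lipopolysaccharide, was higher in WT CD103-CD11b+ DCs (log2 4.17, edgeR FDR 0.0384), at 3.52, 29.0 and 4.36 CPM. The library at 29.0 CPM set most of the mean of this group. Cd180, a relative of TLR4 that pairs with the Ly86 product MD-1, was lower in WT CD103-CD11b+ than in WT CD103+CD11b- DCs (log2 -1.16, edgeR FDR 0.00245), and Ly86 was higher in Cbfb-cKO CD103-CD11b+ DCs (log2 0.82, FDR 0.0186). Cd180 was at 144, 108 and 124 CPM in WT and at 223, 212 and 283 CPM in Cbfb-cKO CD103-CD11b+ libraries, which did not overlap (log2 0.93, SE 0.18, edgeR FDR 0.0337). B cells are known for CD180, and the sum of the 5 B cell markers was also higher in these Cbfb-cKO libraries (69.9 to 286 CPM against 14.5 to 65.97 CPM), whose part in the level of Cd180 was not tested.

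Of the factors that fold, move or process the endosomal receptors, the protease gene Lgmn was higher in CD103-CD11b+ DCs of WT (log2 1.25, edgeR FDR 0.0216) and Cbfb-cKO mice (log2 1.65, FDR 0.00502). Cnpy4 (log2 0.81, edgeR FDR 0.0154) was higher and Ap3b1 (log2 -0.44, FDR 0.0148) lower in the WT comparison, and Slc15a4 (log2 0.88, FDR 0.0265) higher in the Cbfb-cKO comparison. Unc93b1, the chaperone that carries the endosomal receptors, was not called in any comparison, with group means of 429 and 302 CPM in the WT and 489 and 416 CPM in the Cbfb-cKO subsets. Of the inhibitors, Irak3 was at 0.342, 0 and 4.204 CPM in WT CD103+CD11b- and at 11.7, 25.7 and 15.998 CPM in WT CD103-CD11b+ libraries (log2 3.36, edgeR FDR 0.0270), and was also higher in the Cbfb-cKO comparison (log2 2.91, FDR 0.0451). Tnfaip3, which encodes the deubiquitinase A20, was higher in both (log2 1.04, edgeR FDR 0.0418, and 1.46, FDR 0.01004), Sigirr in WT mice (log2 0.82, FDR 0.0360), and Socs1 was lower in Cbfb-cKO mice (log2 -1.73, FDR 0.00147).

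Of the interferon regulatory factors, Irf8, which cDC1s need, averaged 893 and 195 CPM in the WT subsets and 1093 and 250 CPM in the Cbfb-cKO subsets, and was lower in CD103-CD11b+ DCs of both (log2 -2.20, edgeR FDR 0.00246, and -2.13, FDR 0.00171). Irf5 (log2 -0.75, edgeR FDR 0.0144) was lower and Irf1 (log2 0.73, FDR 0.0419) higher in CD103-CD11b+ DCs of WT mice.

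**Figure D5:**
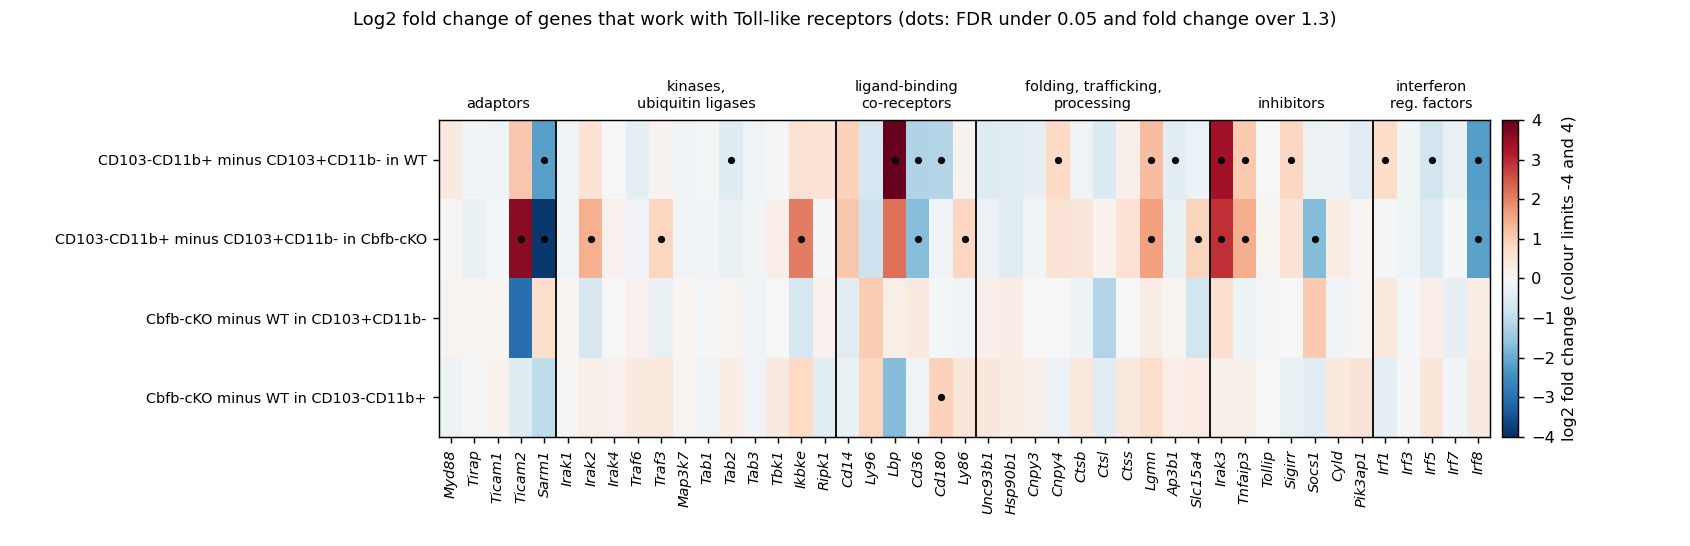
Heat map of the log2 fold change of the 45 genes that work with TLRs (columns, grouped by list) in the 2 subset and 2 genotype comparisons (rows), with colours limited at -4 and 4 and dots for genes past an FDR of 0.05 and a fold change of 1.3. Dots are frequent in the subset rows, with 14 in WT and 13 in Cbfb-cKO mice, and Cd180 has the only dot in the genotype rows.

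The genes most like Tlr12 and Tlr2 were sought among 17168 genes by Pearson's r of log2 CPM over the 12 libraries, a description in which all points share their libraries and the 2 subsets set most of the range. Closest to Tlr12 were Ly75 (r = 0.995), which encodes the cDC1 endocytic receptor DEC-205, Hps4 (r = 0.993) and Mospd2 (r = 0.989). Ly75 averaged 414 and 60.0 CPM in the WT and 493 and 84.1 CPM in the Cbfb-cKO subsets. Closest to Tlr2 were Tspan14 (r = 0.984), Nin (r = 0.983) and Eif4e3 (r = 0.981), with Tspan14 at a mean of 74.5 and 132 CPM in the WT and 55.1 and 125 CPM in the Cbfb-cKO subsets.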

How the data were processed

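The deposited tables held raw read counts per gene for each of the 12 libraries, made by the authors with htseq-count without strand from RamDA-seq libraries of sorted cells, after trimming with Trim Galore, alignment to mm10 with STAR (2.7) and removal of low-quality and duplicate reads. No molecular identifiers are stated for these PCR-amplified libraries, so counting intervals cover counting error only. The 5 summary lines of each table were left out, and reads in no annotated gene were 59.7% to 66.1% of all counted reads. Genes with 5 counts in at least 1 library were tested with edgeR's quasi-likelihood F-test (edgeR 4.0.16, limma 3.58.1, R 4.3.3, TMM scaling) in 1 model of the 4 groups, with Benjamini-Hochberg adjustment over all 20580 genes, and DESeq2 1.42.0 served as an alternative. Calls needed FDR below 0.05 and more than a 1.3-fold difference. RPKM used merged exons of GENCODE M21 (GRCm38), to which 99.8% of gene IDs matched. Every receptor was named, pathway genes where called and among the 3 smallest p of their list in a comparison, Tlr6 and Tlr8 as the other mouse receptors, and further genes (Myd88, Unc93b1) after their values were seen. The receptors and lists were chosen with earlier results of these data known. The scripts were tested on simulated data. The text sets marker lists beside single receptors. T cell, epithelial, monocyte and neutrophil and pan-DC lists were also summed. Of these, the epithelial and the monocyte and neutrophil sums moved with the subsets in both genotypes. A marker gene of the B cell list is not reported here. Replicates differed by more than sampling noise (chi-square per degree of freedom of 2.46 to 23.2), so each counts as 1 sample. Libraries with the same replicate number deviated together between the Cbfb-cKO subsets (r of 0.112, 0.321 and 0.354 over genes), a pairing taken from the data. Alternatives were other tools, filters and thresholds, the replicate block, fits of 6 libraries, leaving out each library and, added after seeing the data, a term for Xist.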

Additional observations from a re-analysis of the deposited data

How the results depend on the processing

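Of 1160 values of single receptors under the alternatives, 1070 kept their direction and side of the threshold, 49 lost the call, 28 gained it and 13, none of them called, changed sign. These were the difference between genotype effects of Tlr3 (-0.03 on the log2 scale, 0.013 with the replicate block and -0.24 to 0.34 without 1 library), Tlr4 (0.22, with -0.29 to 0.83) and Tlr12 (0.10, with -0.13 to 0.27), Tlr7 between the Cbfb-cKO subsets (0.40, with -0.067 to 0.71) and Tlr9 between genotypes in CD103+CD11b- DCs (0.18, with -0.031 to 0.42). The counts of called genes moved more, and the cause was not tested, except that a stricter limit can leave no more calls by construction. In CD103+CD11b- DCs, 210 genes differed between genotypes in the main test, 652 with DESeq2, 598 with the likelihood ratio test, 320 with no filter, 41 at an FDR of 0.01 and 46 to 241 without 1 library. In CD103-CD11b+ DCs, 331 did, against 1136, 1054, 573 with 5 counts in every library, 27 in a fit of 6 libraries, 71 at an FDR of 0.01 and 121 to 517. Between subsets, 3860 in WT and 3307 in Cbfb-cKO mice became 1115 and 1636 at an FDR of 0.01, and 1410 to 4373 and 2124 to 3638 without 1 library. The genotype effect differed between subsets for 134 genes, against 506 with DESeq2, 413 with the likelihood ratio test, 205 with no filter, 19 at an FDR of 0.01 and 29 to 210 without 1 library.

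Of the receptors, those called higher in Cbfb-cKO CD103+CD11b- DCs were 0, against 1 with DESeq2, the likelihood ratio test or 6 libraries and 0 to 1 without 1 library. Those called lower there were 2, against 3 with DESeq2, the likelihood ratio test or the replicate block, 1 with no filter, 5 counts in every library, 6 libraries or an FDR of 0.01, and 0 to 2 without 1 library. In CD103-CD11b+ DCs the higher ones were 2, against 3 with DESeq2 or the replicate block, 0 with 6 libraries or an FDR of 0.01 and 1 to 2 without 1 library, and the lower ones 0, against 1 with DESeq2. Between the WT subsets the higher ones were 2, against 1 with 5 counts in every library or an FDR of 0.01 and 1 to 2 without 1 library, and the lower ones 6, against 3 at an FDR of 0.01 and 4 to 6. Between the Cbfb-cKO subsets the higher ones were 3, against 1 with 5 counts in every library, 2 at an FDR of 0.01 and 4 with the replicate block (Tlr1 gained), and the lower ones 3, against 5 with 6 libraries, 4 with the replicate block (Tlr9 gained) and 3 to 4 without 1 library. The block within genotype gained the same calls. A positive difference between the genotype effects (that in CD103-CD11b+ minus that in CD103+CD11b- DCs) was called for 0 receptors, against 2 with DESeq2 or the likelihood ratio test and 0 to 1.

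With the replicate block, the genotype calls were 522 in CD103+CD11b- and 849 in CD103-CD11b+ DCs and the differences between genotype effects 330, with 2 positive ones among the receptors (Tlr5 and Tlr7), and 328 and 1 with the replicate block within genotype. The block also called Tlr1 higher in Cbfb-cKO CD103-CD11b+ DCs (adjusted p 0.0364) and Tlr7 lower in Cbfb-cKO CD103+CD11b- DCs (0.00626). Same-numbered libraries correlated at 0.357, -0.0846 and 0.352 between the WT subsets, 0.132, -0.0911 and 0.0702 between genotypes in CD103+CD11b- DCs and 0.0200, 0.422 and 0.186 in CD103-CD11b+ DCs, so that not every same-numbered pair correlated over 0.1, as pairing by the data was taken to need. The block within genotype gives no genotype value and a fit of 6 libraries none for the difference between effects. At 2161929 to 5863484 counts a library, Tlr4, Tlr5 and Tlr8, and the adaptor gene Ticam2, are limited by counting error in Cbfb-cKO CD103+CD11b- DCs.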
